A study of Mus musculus with 5 samples.

Results

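The genes described here encode 52 axon and cell guidance proteins in the lens of embryonic day 14 mice: 17 semaphorins, 8 plexins, 2 neuropilins, 9 Eph receptors, 7 ephrins, 2 Slits, 3 Robo receptors, 2 netrins and 2 Unc5 receptors. They are all the symbols of these families among the 12370 in the deposited count table, matched by symbol, with earlier results of these data known when the families were picked, and all 52 passed the filter on low counts. RNA was sequenced in 5 lens libraries. The 3 control libraries came from embryos without Cre whose N-myc alleles are flanked by loxP sites, and some control genotypes in the labels also carry loxP-flanked c-myc, without saying which library had which. The 2 knockout libraries came from embryos with the same loxP-flanked N-myc alleles and 1 copy of Mlr10-Cre, a transgene that drives Cre recombinase in the lens. No control carried the transgene, so its effects and those of the deletion cannot be told apart. Lysates of lenses from single animals were pooled before RNA was purified, so a p-value here rests on how much the pools of 1 group differ, which may be partly technical.

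Guidance proteins were first known for steering growing axons, and they also control adhesion, shape and boundaries of cells that have no axons. Secreted class 3 semaphorins bind neuropilins and signal through plexins, while membrane-bound semaphorins bind plexins directly. Ephrins are membrane-bound ligands that signal on cell contact through Eph receptor tyrosine kinases, Slits signal through Robo receptors, and netrins through Unc5 and Dcc receptors. In the lens, EphA2 and ephrin-A5 are known for the ordered packing of fibre cells, and lens-derived semaphorin 3A for holding nerves away from the developing eye's front.

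The libraries held 13162384 to 13746416 counts, and values are given as CPM, counts scaled to library size with TMM factors. Mycn, the deleted gene, stood at 162, 148 and 140.3 CPM in the controls and at 57.3 and 81.9 CPM in the knockouts, 2.16-fold lower (edgeR adjusted p = 0.0097, and 0.056 without control replicate 2). All 12 lens markers were present, with a summed level of 85021 to 106738 CPM in the controls and 79289 and 92847 CPM in knockout libraries 1 and 2. Of the 12, Cryab, Mip and Bfsp1 were called lower and none higher by edgeR, with a median log2 fold change of -0.44. Libraries also held RNA of other cells, in unequal amounts. The 11 measured periocular mesenchyme markers summed to 607 to 898 CPM in the controls, 2383 CPM in knockout library 1 and 777 CPM in knockout library 2, and Twist2 and Foxc2 of that list are not in the table. Of these sums, Pdgfra alone gave 463, 426 and 461 CPM in the controls and 532 and 443 CPM in knockout libraries 1 and 2. Which cells its RNA came from was not tested. The 6 skeletal muscle markers summed to 9.64 to 44.0 CPM, 312 CPM and 12.2 CPM in the same order. The 13 measured markers of retinal progenitors and early neurons summed to 87.7 to 92.6 CPM in the controls, 133 CPM in knockout library 1 and 259 CPM in knockout library 2, with Isl1 and Pou4f1 not in the table. The 3 measured macrophage markers of 6 summed to 12.5 to 16.4 CPM in the controls and to 22.8 and 24.5 CPM in the knockouts. The 10 endothelial markers were at 254 to 304 CPM in the controls and at 255 and 266 CPM in the knockouts. The part of these cells in the results below was not tested, and in bulk RNA fewer cells of a type cannot be told apart from less RNA per cell.

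Of the 52 guidance genes, 18 rose in the knockout lenses by edgeR's quasi-likelihood test (adjusted p under 0.05, Benjamini-Hochberg over 12035 genes), where 7.98% of all tested genes were called higher. None was called lower, where 8.51% of all genes were. One gene, Sema3a, was lower at an unadjusted edgeR p under 0.05, as were 2122 of the 12035 genes tested. With DESeq2 Sema3a was called (1 lower and 20 higher), while limma-voom gave 17 higher and 0 lower. DESeq2 called 9.36% of all genes higher and 9.69% lower, and limma-voom 6.81% and 7.56%. The median log2 fold change of the 52 genes was 0.53, against 0.00 over all genes tested, and 49 of the 52 had a fold change above 0, against 50.2% of all genes. Both knockout libraries lay above each control library for 33 guidance genes (25.5% of all genes tested) and below for 1 (27.0%). The called genes rose 1.33-fold to 9.53-fold with a median of 1.69-fold, and 6 of them rose by 2-fold or more, which 2.19% of all genes did. These 6 were Sema3c, Sema6c, Unc5c, Sema3f, Robo2 and Nrp2.

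Receptors made up more of the calls than ligands did. Of 24 receptor and co-receptor genes 12 rose, with a median log2 fold change of 0.63, and of 28 ligand genes 6 rose, with a median of 0.43. The difference between ligands and receptors was not tested. By family, 5 of 8 plexins, 3 of 4 EphB receptors, 3 of 11 class 4 to 7 semaphorins, 2 of 6 class 3 semaphorins and 1 each of 2 neuropilins, 5 EphA receptors, 3 ephrin-B ligands, 3 Robo receptors and 2 Unc5 receptors rose. No ephrin-A ligand, Slit or netrin was called by edgeR, DESeq2 or limma-voom with all 5 libraries, while edgeR without knockout replicate 2 called Efna2 and Ntn1 higher. At an unadjusted edgeR p under 0.05 there was 1 of 4 ephrin-A genes, 0 of 2 Slits and 1 of 2 netrins. The same held for 4311 of the 12035 genes tested.

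**Figure D1:**
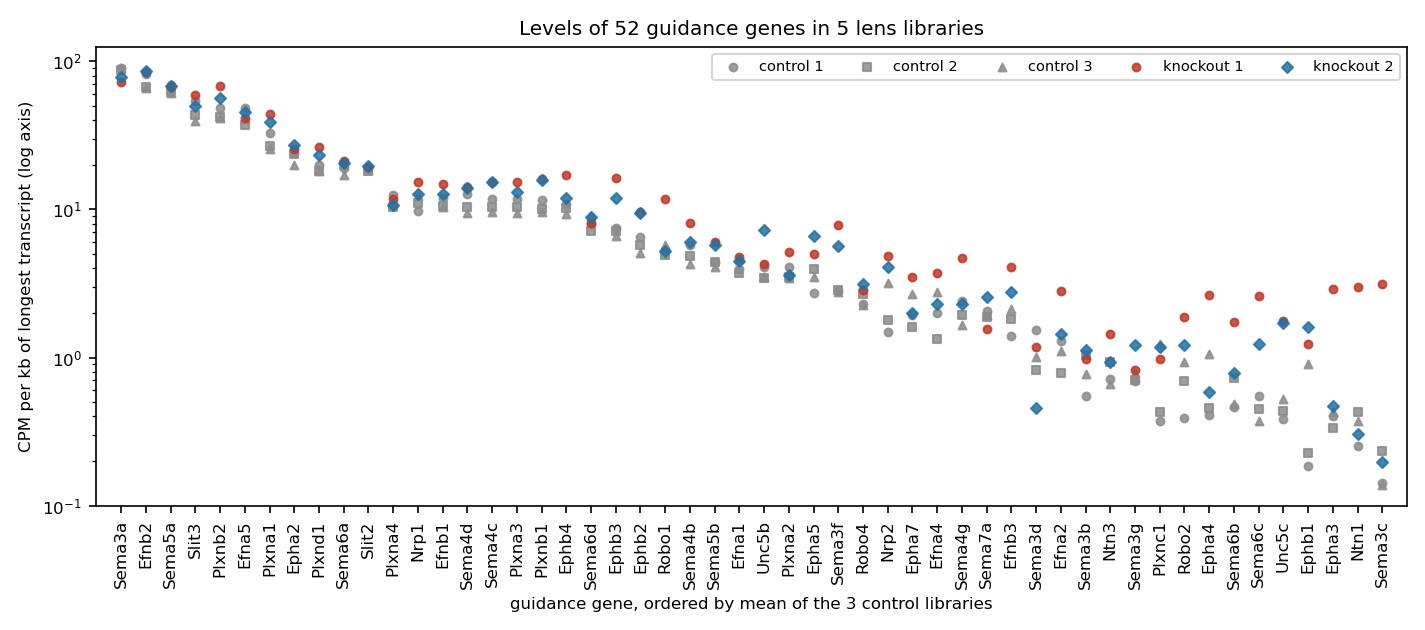
Level of each guidance gene in each library, as CPM per kb of the longest annotated transcript on a log axis, with genes ordered by the mean of the 3 controls. Grey symbols are controls, red circles knockout library 1 and blue diamonds knockout library 2. The genes at the left, such as Sema3a and Efnb2, show close values in the 5 libraries, and the widest spreads are among the low genes at the right.

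The most abundant guidance transcripts of the control lens, per kb of transcript, were those of ligands. Sema3a was at 89.0 CPM per kb, Efnb2 at 71.8, Sema5a at 64.2, Slit3 at 45.4 and Efna5 at 42.2 CPM per kb, and Plxnb2, the most abundant receptor, at 44.0 CPM per kb. The length of the longest annotated transcript was used, and which transcripts the lens makes is not known from these counts. Of these 6 genes, only Plxnb2 passed the test. The plot of levels by gene shows that the genes with the largest fold changes were among the least abundant in the controls, with Unc5c at 0.447, Sema6c at 0.458 and Sema3c at 0.172 CPM per kb.

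Many calls were lost when 1 library was left out. Without control replicate 2, 1 guidance gene was called higher, Unc5c, where 0.175% of all genes were. The median log2 fold change of the 52 genes was 0.50 in that fit and 0.53 with all 5 libraries. The number of calls thus fell there while the median fold change hardly moved. Without control replicate 1, 14 were called (8.21% of all genes), and of the 18 calls Sema3c, Sema5b, Nrp2, Ephb4, Efnb3 and Robo2 were lost. Without control replicate 3, 8 were called (1.1% of all genes), namely Ephb1, Ephb2, Ephb3, Nrp2, Plxnb1, Plxnc1, Sema3f and Unc5c. Without knockout replicate 1, 7 were called (1.48%), namely Epha5, Ephb2, Ephb3, Plxnb1, Sema3f, Unc5b and Unc5c. Without knockout replicate 2 the number was 28 (11.8%), among them Epha3, Epha4, Ntn1, Robo1, Sema4g and Sema6b, and Epha5 was the 1 call of the 18 that was lost. No guidance gene was called lower in the fits that left out a control library. Those fits called 0.142%, 7.8% and 0.875% of all genes lower in the order given. With all 5 libraries, 1 guidance gene was lower at an unadjusted edgeR p under 0.05, as were 2122 of the 12035 genes tested. Unc5c alone of the 18 genes was called in each of the 15 alternative analyses. Sema3f and Ephb3 were called in 14 of the 15, the exception being the fit without control replicate 2 (adjusted p = 0.056 and 0.059, edgeR).

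**Figure D2:**
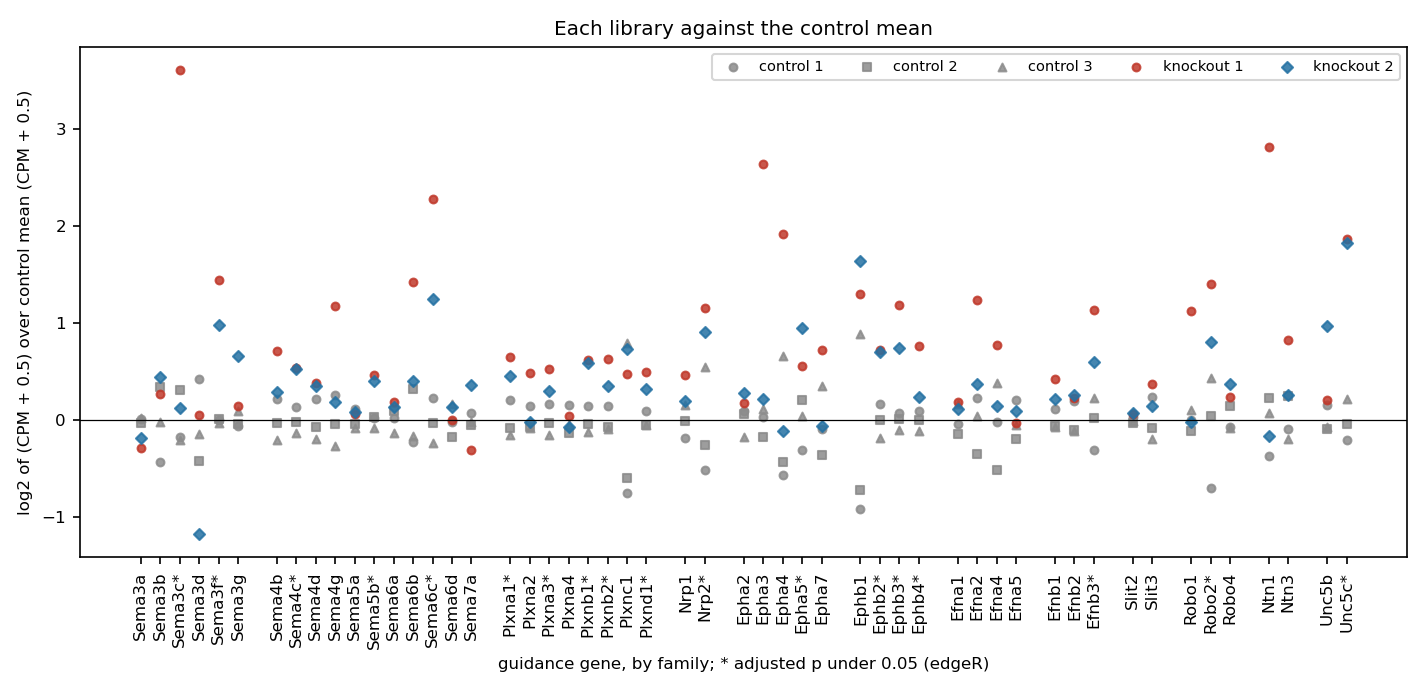
Log2 ratio of each library to the control mean, from CPM with 0.5 added, for the 52 genes in family order, where an asterisk marks an adjusted p under 0.05. Red circles (knockout library 1) reach 3.61 for Sema3c, 2.81 for Ntn1 and 2.65 for Epha3, where the blue diamonds (knockout library 2) are at 0.13, -0.16 and 0.22, while for Unc5c the symbols coincide at 1.87 and 1.83.

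Among the secreted class 3 semaphorins, Sema3f rose 2.42-fold. Semaphorin 3F is a repellent that acts through neuropilin-2. Sema3f stood at 9.56, 9.64 and 9.34 CPM in the controls and at 26.8 and 19.3 CPM in the knockouts (log2 1.27, SE 0.17, edgeR adjusted p = 0.0097). The knockout libraries were at 2.81 and 2.03 times the control mean. The gene lies on chromosome 9 at 107681500 to 107710475 (GRCm38). Sema3c, a ligand known from neural crest and outflow tract development, was called with a fold of 9.53 (edgeR adjusted p = 0.047), on the strength of 1 library. It was at 0.784, 1.29 and 0.759 CPM in the controls, 17.1 CPM in knockout library 1 and 1.08 CPM in knockout library 2, so the groups overlapped. Without knockout replicate 1 its log2 fold change was 0.19 (edgeR adjusted p = 0.89), and without any 1 control library the adjusted p was 0.11 to 0.13. Knockout library 1 is the one with the high mesenchyme and muscle markers.

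Sema3a went the other way from most members. It was at 532, 516 and 535 CPM in the controls and at 432 and 467 CPM in the knockouts, with every knockout below every control (log2 -0.23, SE 0.085, edgeR adjusted p = 0.092). It did not pass edgeR's test and passed with DESeq2 (adjusted p = 0.016), with adjusted p from 0.016 to 0.83 over its alternatives. Its transcript has a GC content of 40.8%, in the lowest of 5 equal bins of tested genes by GC content (31% to 43.9%). All genes of that bin had a median log2 fold change of -0.24, and 56.2% had both knockout libraries below each control. With the trends on transcript length and GC content removed, Sema3a was at log2 -0.077. With less weight on outlying genes in the trend fit, Sema3a was at -0.021. Sema3d had a log2 fold change of -0.47 (SE 0.41), with 9.72, 5.16 and 6.38 CPM in the controls and 7.37 and 2.87 CPM in the knockouts. Sema3b and Sema3g were under 6 CPM in every library and did not pass.

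The class 4 to 7 semaphorins are membrane-bound, and all 11 had log2 fold changes above 0, as did 50.2% of all genes tested. The median GC content of the 11 was 57.1%. In the bin with the highest GC content, 78.2% of all genes had log2 fold changes above 0. With the trends on length and GC content removed, the median log2 fold change of the 11 went from 0.45 to 0.11. Sema6c, a transmembrane semaphorin of class 6, rose 4.15-fold from 2.82, 2.28 and 1.90 CPM to 13.2 and 6.24 CPM (log2 2.05, SE 0.34, edgeR adjusted p = 0.014). Sema4c, a ligand of plexin-B2, rose 1.45-fold from 45.5, 40.7 and 37.5 CPM to 60.0 and 59.8 CPM (edgeR adjusted p = 0.019). Sema5b rose 1.37-fold from 20.5, 20.6 and 19.0 CPM to 28.0 and 26.8 CPM (edgeR adjusted p = 0.034). For these 3 genes both knockout libraries lay above every control. The same held for 25.5% of all genes tested and for 48.3% of the bin with the highest GC content, which includes all 3. None of the 3 passed without knockout replicate 1 or without control replicate 2 or 3.

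The 2 most abundant genes of these classes did not pass. Sema5a was at 751, 674 and 657 CPM in the controls and at 724 and 736 CPM in the knockouts, which lie within the range of the controls (log2 fold change 0.07, SE 0.095). Sema6a had 131, 137 and 117 CPM against 146 and 141 CPM (log2 fold change 0.17, SE 0.089). Sema4b, Sema4d and Sema6b had both knockout libraries above all controls, with log2 fold changes of 0.52, 0.37 and 1.16 and edgeR adjusted p between 0.071 and 0.074. Sema4g reached 21.3 CPM in knockout library 1 and 10.5 CPM in knockout library 2, against 7.51 to 11.0 CPM in the controls. Sema6d and Sema7a, the GPI-anchored member, each had a log2 fold change of 0.07.

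Of the 8 plexins, the semaphorin receptors, 5 rose, by 1.33-fold to 1.53-fold. Plxnb1 was at 99.8, 87.4 and 82.6 CPM in the controls and at 138 and 136 CPM in the knockouts (1.53-fold, log2 0.61, SE 0.095, edgeR adjusted p = 0.013). Plxnd1, the receptor best known in blood vessels, was at 138, 125 and 125 CPM against 183 and 162 CPM (1.33-fold, log2 0.41, SE 0.090, edgeR adjusted p = 0.026). Plxna1, a partner of neuropilins, was at 296, 241 and 229.8 CPM against 401 and 352 CPM (1.47-fold, log2 0.56, SE 0.12, edgeR adjusted p = 0.027). In these 3 genes, and in Plxnb2 (1.41-fold) and Plxna3 (1.34-fold), both knockout libraries exceeded each control, as in 25.5% of all genes tested. Plxnb2 had 316, 273 and 269 CPM in the controls and 443 and 364 CPM in the knockouts.

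Plxna4, Plxna2 and Plxnc1 did not pass. Plxna4 had 162, 133 and 141 CPM in the controls and 150.3 and 138.5 CPM in the knockouts, a log2 fold change of -0.01 (SE 0.10). Plxna2 was at 38.2 to 44.8 CPM in the controls, 57.0 CPM in knockout library 1 and 40.1 CPM in knockout library 2. Plxnc1 ranged from 2.74 to 8.96 CPM among the controls alone. Without control replicate 2, none of the 5 called plexins passed, and without knockout replicate 1 only Plxnb1 did. The exons of Plxna1, Plxnb1 and Plxna4 overlap annotated genes of the opposite strand (Gm26811, Gm7628 and Plxna4os3), whose reads cannot be separated without a stated strand setting. The same limit holds for Sema4c, Ephb4, Ephb1 and Efna4.

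Of the neuropilins, Nrp2 rose and Nrp1 did not pass. Nrp2, the co-receptor for semaphorin 3F, was at 9.96, 12 and 21.3 CPM in the controls and at 32.8 and 27.5 CPM in the knockouts (2.09-fold, log2 1.06, SE 0.28, edgeR adjusted p = 0.042). Control library 3 lay nearer to the knockouts than the other controls did. The edgeR adjusted p was 0.17 without knockout replicate 1, 0.14 without control replicate 2 and 0.076 without control replicate 1. Nrp1, a co-receptor for semaphorin 3A and for VEGF, had 35.5, 40.1 and 45.0 CPM against 55.7 and 46.1 CPM (log2 0.34, SE 0.13, edgeR adjusted p = 0.10). Endothelial cells also express Nrp1, Plxnd1 and Robo4, and of the 10 endothelial markers 1, Flt1, was called, as lower. The part of endothelial cells in the values of Nrp1, Plxnd1 and Robo4 was not tested.

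EphB receptors, which mainly bind ephrin-B ligands, were higher in both knockout libraries than in every control for all 4 measured members. The same held for 25.5% of all genes tested. It held for 48.3% of the fifth with the highest GC content, which includes Ephb3 and Ephb4. Ephb3 rose 1.99-fold, from 35.3, 33.9 and 31.2 CPM to 76.9 and 56.3 CPM (log2 0.99, SE 0.14, edgeR adjusted p = 0.01). It lies on chromosome 16 at 21204755 to 21223305 (GRCm38). Ephb2 rose 1.65-fold, from 70.8, 63.0 and 55.3 CPM to 105 and 103 CPM (log2 0.72, SE 0.11, edgeR adjusted p = 0.012). Its values in the knockout libraries were nearly equal. Ephb4, known from veins, was at 46.9, 44.0 and 40.5 CPM against 74.6 and 51.9 CPM (1.44-fold, edgeR adjusted p = 0.048) and had an adjusted p of 0.31 without knockout replicate 1. Ephb1 was at 0.862, 1.06 and 4.25 CPM in the controls and at 5.80 and 7.46 CPM in the knockouts (log2 1.68, SE 0.58, edgeR adjusted p = 0.077). It passed with DESeq2 and limma-voom, and without control replicate 3 (adjusted p = 0.023), the library in which it was highest among the controls.

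EphA receptors mainly bind ephrin-A ligands, and of the 5 measured only Epha5 rose. Epha5 was at 20.0, 28.8 and 25.6 CPM in the controls and at 36.9 and 48.4 CPM in the knockouts (1.72-fold, log2 0.78, SE 0.17, edgeR adjusted p = 0.027). It was among the 15 of 52 guidance genes that were higher in knockout library 2, the library with the higher retinal markers, than in knockout library 1. Epha2, the EphA receptor of lens fibres and the most abundant of the 5, was at 94.3, 91.9 and 78.1 CPM against 100 and 107 CPM and did not pass (log2 0.23, SE 0.10, edgeR adjusted p = 0.14). Epha3 and Epha4 were high in knockout library 1 alone, with 16.4 and 16.7 CPM there and 2.65 and 3.73 CPM in knockout library 2. Their controls reached at most 2.43 and 6.68 CPM. Epha7 had 23.4 and 13.4 CPM in the knockouts and 10.8 to 18 CPM in the controls.

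Among the ephrins, only Efnb3 passed. It was at 4.47, 5.77 and 6.75 CPM in the controls and at 13 and 8.82 CPM in the knockouts (1.92-fold, log2 0.94, SE 0.24, edgeR adjusted p = 0.039), with an adjusted p of 0.23 without knockout replicate 1. Efnb2, the ephrin with the highest level in the lens, was at 395, 320.5 and 318 CPM against 404 and 413 CPM, just above the highest control (log2 0.25, SE 0.11, edgeR adjusted p = 0.16). Efnb1, an X-linked ephrin, was at 38.7, 34.2 and 33.8 CPM against 48.1 and 41.6 CPM (log2 0.33, SE 0.11, edgeR adjusted p = 0.07). Efna5, an ephrin-A ligand, was at 196, 149 and 165 CPM against 166 and 182 CPM, with the knockouts inside the control range (log2 fold change 0.03, SE 0.12). Efna1 had a log2 fold change of 0.16 (SE 0.19), and Efna2 and Efna4 were at 6.01 CPM or less in every library.

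Of the 2 Slits and 3 Robo receptors, Robo2 alone passed. Slit2 had 189, 182 and 183 CPM in the controls and 193 and 194 CPM in the knockouts (log2 fold change 0.07, SE 0.073). Slit3 had 279.8, 225 and 208 CPM against 308 and 263 CPM (log2 0.27, SE 0.14, edgeR adjusted p = 0.20). Neither Slit passed. Robo2, a Slit receptor of neurons and other cells, rose 2.30-fold from 3.37, 6.0 and 7.97 CPM to 16.1 and 10.5 CPM (log2 1.20, SE 0.33, edgeR adjusted p = 0.045), with an adjusted p of 0.24 without knockout replicate 1. Robo1 was at 88.7 CPM in knockout library 1 and at 39.9 CPM in knockout library 2, against 37.2 to 43.4 CPM in the controls. Robo4, the endothelial member, was at 11.2 to 13.2 CPM in the controls and at 14.1 and 15.6 CPM in the knockouts (log2 fold change 0.32, SE 0.15).

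Unc5c, a netrin receptor that mediates repulsion, had the smallest adjusted p of the 52 genes. Unc5c (chromosome 3, 141465216 to 141834924, GRCm38) was at 3.68, 4.17 and 5.09 CPM in the controls and at 17.1 and 16.6 CPM in the knockouts, a 3.90-fold rise (log2 1.96, SE 0.18, edgeR adjusted p = 0.0029). As raw counts, the control libraries held 47, 55 and 67 and the knockout libraries 239 and 232. Both knockout libraries lay at nearly the same height, above every control. The retinal and macrophage marker sums were also above every control in both knockout libraries, and their part in this result was not tested. Its adjusted p over the alternatives was at most 0.034. Unc5c exons overlap an annotated antisense gene, Gm15688, which is not in the count table.

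Unc5b had 24.1, 20.3 and 20.5 CPM in the controls and 25.0 and 42.7 CPM in the knockouts (log2 0.65, SE 0.21, edgeR adjusted p = 0.067). Ntn1, the netrin ligand, was at 1.49, 2.5 and 2.2 CPM in the controls, 17.5 CPM in knockout library 1 and 1.79 CPM in knockout library 2. Its log2 fold change was 2.22 with all libraries (edgeR adjusted p = 0.074) and -0.20 without knockout replicate 1. Ntn3 was at 3.34 to 4.71 CPM in the controls and at 7.30 and 4.73 CPM in the knockouts, and its exons overlap Tbc1d24.

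**Figure D3:**
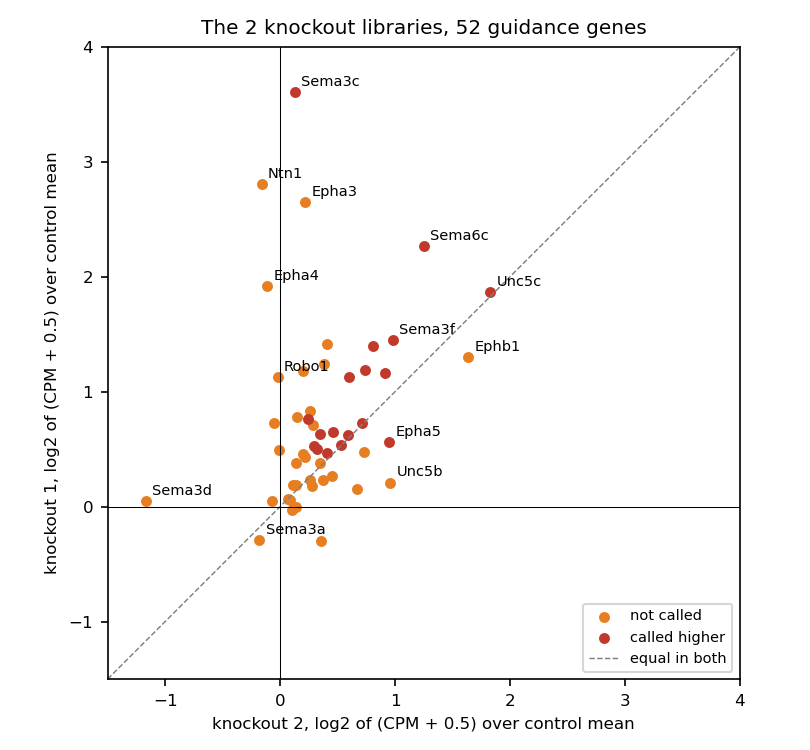
Log2 ratio to the control mean (CPM with 0.5 added) in knockout library 1, on the vertical axis, against knockout library 2, on the horizontal axis, for the 52 genes, with the dashed line marking equal values. Unc5c lies on the line, Sema3f and Sema6c are raised on both axes, and Sema3c, Ntn1, Epha3, Epha4 and Robo1 form a column between -0.16 and 0.22 for knockout library 2.

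The guidance genes moved in more than 1 way across the knockout libraries, as the plot of one against the other shows. The median log2 ratio to the control mean was 0.55 in knockout library 1 and 0.30 in knockout library 2, and 37 of the 52 genes were higher in library 1. In 6 genes library 1 was at 2 times the control mean or more and library 2 at 1.21 times or less. Sema3c was at 18.1 and 1.14 times the control mean in libraries 1 and 2, Ntn1 at 8.49 and 0.868, Epha3 at 7.45 and 1.21, Epha4 at 4.12 and 0.921, Sema4g at 2.33 and 1.16, and Robo1 at 2.2 and 0.989 times. They were picked after their values were seen. Of the periocular mesenchyme markers, Col1a1 went from a control mean of 56.2 CPM to 499.8 CPM in library 1 and 59.2 CPM in library 2, the same order. Whether these 6 transcripts came from mesenchyme or muscle was not tested.

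**Figure D4:**
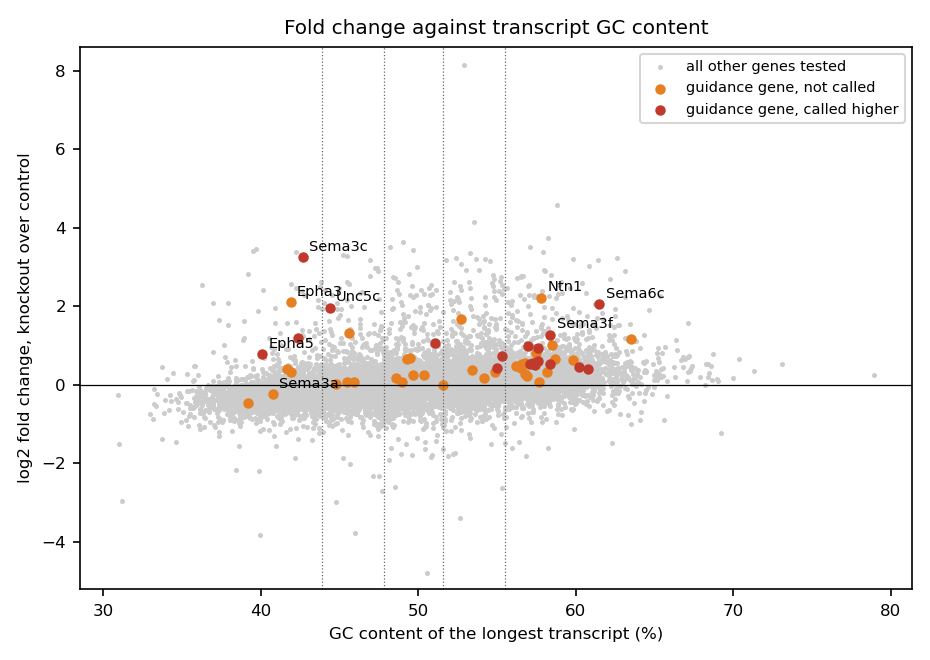
Log2 fold change of the 11804 tested genes with a known transcript sequence against the GC content of the longest transcript in percent, with dotted lines at the limits of 5 bins of equal size. Grey points are all other genes, orange points guidance genes not called and red points guidance genes called higher. The grey cloud tilts upward to the right, and Sema3c, Epha3, Unc5c and Epha5 lie above it on the left side.

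Fold changes in these libraries followed the GC content of transcripts, and many guidance transcripts are rich in GC, as the plot against GC content shows. Of the 52 guidance genes, 25 fell in the highest of 5 equal bins of tested genes by GC content (55.5% to 78.9%). In that bin 11 of the 25 guidance genes (44.0%) and 18% of all genes were called higher, with median log2 fold changes of 0.56 and 0.26. In the bin with the lowest GC content (31% to 43.9%), 3 of 8 guidance genes and 1.57% of all genes were called higher, with medians of 0.59 and -0.24. The 3 were Epha5, Robo2 and Sema3c. Unc5c, with a GC content of 44.4%, was in the next bin, where 3.01% of all genes were called higher.

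When the trends of counts on transcript length and on GC content were taken out of each library, 7 guidance genes were called higher (2.95% of all genes) and 1 lower (7.45%). The 7 were Unc5c, Sema3f, Ephb3, Epha5, Sema6c, Robo2 and Nrp1, and 6 of them were among the 18 calls made without this step. The median log2 fold change of the 52 genes was then 0.13, against -0.04 over all genes. A trend fit that gives outlying genes less weight, chosen after seeing the data, also gave 7 higher (4.0% of all genes) and 1 lower (6.12%), with medians of 0.20 and 0.02. None of the 5 called plexins passed after the trends were removed. Their log2 fold changes went to between -0.17 (Plxnd1) and 0.12 (Plxnb1), and Plxna4 was called lower (log2 fold change -0.35, edgeR adjusted p = 0.025). Unc5c kept a log2 fold change of 1.92 (edgeR adjusted p = 0.0022), Sema6c 1.45, Sema3f 0.88, Epha5 0.92 and Ephb3 0.57. Ephb2 went to 0.28 (edgeR adjusted p = 0.081) and Ephb4 to 0.08, and the median of the 4 EphB receptors from 0.86 to 0.43. With less weight on outlying genes, Ephb2 was at 0.37 and was called (edgeR adjusted p = 0.02).

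Promoters of the guidance genes were searched for the E-box CACGTG, the sequence that MYC proteins bind with MAX, in the 250 bases before each annotated start. The motif is its own reverse complement, so 1 search covers both strands. RefSeq windows (GRCm38.p6) were given for 45 of the 52 genes, with 57 starts. The motif was in 3 of the 57 windows (5.26%), and in 8.39% of the 11961 windows of all tested genes. Of the 15 guidance genes called higher with a window, 1 held it, and of the 30 not called, 2. The 3 sites are shown with 12 bases on each side, 5′ to 3′ on the gene's strand, with the E-box in capitals, since they are the only matches among the guidance genes.
Robo2: tcaggctcgcctCACGTGgggaggagggag
Sema4b: ggtgcggcggccCACGTGaccaccttccct
Sema6d: cgagcgcagaagCACGTGggctaagggggt
The Robo2 stretch lies at chr16:75447294-75447323 on the minus strand, 18 bases from the motif's first base to the start of the most upstream Robo2 transcript. The Sema4b stretch lies at chr7:80198474-80198503 and the Sema6d stretch at chr2:124089934-124089963, both on the plus strand, with 102 and 23 bases from the motif's first base to the start. The Robo2 site lies outside the span of the gene in GENCODE vM21 (73891839 to 74411825), and the Sema4b site inside its gene (80186841 to 80226527). Which starts the lens uses is not known from these counts. A match is a run of letters and not a measured binding site. Of the 3 genes, Robo2 was called higher, and Sema4b and Sema6d were not.

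Of 15 tested co-receptors and further guidance ligands and receptors, 8 rose and 0 fell (median log2 fold change 0.52 over the list), where 7.98% of all genes were called higher. Ptk7, a planar polarity receptor, rose 1.72-fold from 28.8, 30.5 and 30.1 CPM to 56.3 and 46.2 CPM (edgeR adjusted p = 0.01). Flrt1, a ligand of Unc5 receptors, rose 2.93-fold from 2.74, 4.17 and 4.93 CPM to 11.5 and 11.8 CPM (edgeR adjusted p = 0.013). Gpc1, a heparan sulfate proteoglycan that binds Slits, rose 1.57-fold, and Cntn2, a neuronal adhesion protein, 3.33-fold. Dcc, Rgma, Sdc3 and Islr2 completed the 8. Neo1, Draxin and Flrt2 did not pass. Flrt2 was at 662, 557 and 655 CPM in the controls and at 488 and 515 CPM in the knockouts (log2 -0.32, edgeR adjusted p = 0.071). DESeq2 called 9 genes of this list higher and 1 lower (9.36% and 9.69% of all genes). Without control replicate 2 edgeR called 0 genes of this list higher (0.175% of all genes), without control replicate 3 it called 3 (1.1%), without knockout replicate 1 it called 4 (1.48%), and it called 3 (2.95%) once the trends on length and GC content were taken out.

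Of 51 tested effectors, 11 rose and 1 fell (median log2 fold change 0.20), where 7.98% of all genes were called higher and 8.51% lower. Most are cytoplasmic, while the 1 that fell, Adam10, is a cell surface protease. Srgap3, a GTPase-activating protein of Slit and Robo signalling, rose 4.08-fold from 9.49, 12.3 and 10.2 CPM to 48.5 and 38.7 CPM (log2 2.03, SE 0.15, edgeR adjusted p = 0.0014). Dpysl3, a collapsin response mediator downstream of semaphorins, rose 3.59-fold from 21.4, 24.7 and 26.6 CPM to 103 and 71.2 CPM (log2 1.84, SE 0.16, edgeR adjusted p = 0.0026). Both genes passed in each of the 15 alternatives. Srgap1 rose 1.61-fold. Adam10, a protease that sheds ephrins and cadherins from the cell surface, fell 1.74-fold from 515, 517 and 561 CPM to 281 and 330.0 CPM (edgeR adjusted p = 0.0091), and passed in 14 of the 15 alternatives, with an adjusted p of 0.055 in the other. Dpysl5, Mical1, Mical2, Farp1, Fyn, Abl1, Trio and Dock1 made up the other calls. DESeq2 called 13 effectors higher and 3 lower (9.36% and 9.69% of all genes). Of this list 2 rose without control replicate 2 (0.175% of all genes). Without control replicate 3, 2 rose and 1 fell (1.1% and 0.875%), and without knockout replicate 1, 3 rose and 1 fell (1.48% and 0.937%). Once the trends on length and GC content were taken out, 5 rose and 2 fell (2.95% and 7.45%).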

How the data were processed

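Each lens RNA-seq library has 1 column of whole-number counts in a single table by gene symbol, as deposited by the authors, with unequal column sums. Per the submitters' processing notes, the tools named are HTSeq 0.6.1, TopHat2 2.0.13, Trim Galore 0.3.7, DESeq2 and Cufflinks 2.2.1 and the build is mm10, with no role or order stated. How strand was treated, the annotation and the rule for keeping symbols were not given in the sources used here.

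Groups came from the sample titles. The counts were tested in R 4.3.3 with edgeR 4.0.16 (filterByExpr with minimum count 10, TMM, glmQLFit, glmQLFTest, no covariate) on all 12035 genes kept, with Benjamini-Hochberg adjustment and a threshold of 0.05. The SE is the log2 fold change over the square root of F. The alternatives were DESeq2 1.42.0, limma-voom (limma 3.58.1), other scalings and filters, a replicate block, loess trends (span 0.3) on transcript length and GC content (GENCODE vM21, GRCm38, known for 98.1% of tested genes), and leaving out each library. The fit was tested on simulated data. Members, gene lists and marker lists were chosen with earlier results of these data known. Every called member is named, with full values for up to 3 called and the 2 most abundant members of each family, and up to 4 called genes of each further list. Other genes named were chosen after their values were seen. Nothing in the labels pairs same-numbered libraries beyond the number.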

Additional observations from a re-analysis of the deposited data

How the results depend on the processing

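Against 18 guidance genes called higher and 0 lower, DESeq2's size factors and both other filters gave 18, library totals only 24 (12.6% of all genes higher and 5.29% lower) and limma-voom 17, with 0 lower, and DESeq2 20 higher and 1 lower. Removing the length and GC trends gave 7 higher and 1 lower, and the outlier-resistant trends, chosen after seeing the data, also 7 and 1. Leaving out 1 library gave 1 to 28 higher and 0 lower. The labels do not say that replicate numbers pair the libraries. Correlations of same-numbered deviations from the group means were -0.093 and 0.007. Deviations of the 2 knockout libraries mirror each other, so these values cannot show whether libraries were paired. A replicate block gave 14 higher and 0 lower (3.93% and 4.34% of all genes), 12 of the 14 among the 18, and with the trends removed 10 and 0 (2.04% and 3.37%). The cause was not tested.

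Signs changed in these cases, given as log2 fold changes. With the trends removed, Efnb1 was at -0.038, Epha2 -0.13, Plxnd1 -0.17, Robo4 -0.023, Sema5a -0.035, Sema5b -0.065, Sema6a -0.002, Sema6d -0.091, Sema7a -0.26, Slit2 -0.015 and Slit3 -0.15. With the replicate block as well, Efnb1 was at -0.044, Epha2 -0.19, Plxna2 -0.028, Plxna3 -0.015, Plxnd1 -0.14, Robo4 -0.046, Sema5a -0.068, Sema5b -0.06, Sema6a -0.068, Sema6d -0.01, Sema7a -0.295, Slit2 -0.02 and Slit3 -0.21. With the outlier-resistant trends, Epha2 was at -0.043, Plxnd1 -0.084, Sema6d -0.018, Sema7a -0.18 and Slit3 -0.06. Without knockout replicate 1, Epha4 was at -0.12, Epha7 -0.054, Ntn1 -0.20, Plxna2 -0.012 and Robo1 -0.013. Without knockout replicate 2, Efna5 was at -0.034, Plxna4 0.046, Sema3d 0.058 and Sema7a -0.33. The opposite ends over the libraries left out 1 at a time were 2.04 for Epha4, 0.74 for Epha7, 3.08 for Ntn1, 0.49 for Plxna2, 1.14 for Robo1, 0.15 for Efna5, -0.069 for Plxna4, -1.30 for Sema3d and 0.39 for Sema7a. Efna5 was at -0.041 without control replicate 2, and Plxna4 at 0.08 without control replicate 1 and 0.075 with library totals only. Counting error is widest for the genes of few counts, such as Sema3c with 10 to 17 in the controls.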
